A study of Mus musculus with 2 samples.

Results

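Rangap1 and Ranbp1 are the 2 regulators of the small GTPase Ran that the study named among its GTPase-activating proteins (GAPs), exchange factors (GEFs) and their partners. They were taken as all probe sets whose gene entry in the GAP and GEF table is Rangap1 or Ranbp1. A probe set is the group of array probes that measures 1 transcript region. They are 2 of the 168 genes that the table holds with a single gene ID, and 4 of its 374 probe sets, 3 for Rangap1 (gene ID 19387) and 1 for Ranbp1 (gene ID 19385). The same 4 were read among the 45037 probe sets, controls not counted, of the value table of the whole array.

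Differentiated and undifferentiated cells of a mouse podocyte line from a wild-type mouse carrying the Immorto transgene, which keeps cells dividing under permissive conditions, were compared on 1 Affymetrix murine genome array each. Podocytes are the epithelial cells that wrap the capillaries of the kidney's filter. The differentiated cells had been held at 37 °C in medium with 5% serum and no interferon gamma for at least 10 days and had stopped growing, per the labels. The undifferentiated cells came from routine culture at 33 °C on collagen I, with interferon gamma in the medium. For that permissive medium the protocol of the line gives 10% serum and 100 U/ml of interferon gamma. Temperature, interferon, serum, growth state and RNA kit (Ambion for differentiated, Qiagen for undifferentiated) all differ between the groups and cannot be told apart. With 1 array per group there is no replicate check and no test, and every ± below is the deposited standard error read as the model error of 1 array.

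Ran is the GTPase that sets the direction of transport through nuclear pores. Its exchange factor sits on chromatin and loads it with GTP in the nucleus, and Rangap1, in the cytoplasm and on the outer face of the pore, makes it hydrolyse that GTP. Ranbp1 binds GTP-loaded Ran, helps to free it from transport receptors and speeds the action of Rangap1. In dividing cells, where the nuclear envelope opens, the same cycle guides assembly of the spindle. A fold change in these RNAs says nothing of the activity of the proteins, and in bulk RNA fewer cells with a transcript and less transcript per cell cannot be told apart.

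The start regions of both genes are shown because they are the regulatory sequence nearest to the transcripts measured. Each run is the 150 bases upstream of the start in RefSeq's table of promoters (build GRCm38.p6, both on the minus strand, written 5′ to 3′ along the gene). Capitals mark matches to the motifs searched, which were chosen after the sequences were seen. The Rangap1 run is chr15:81729920-81730069 and the Ranbp1 run is chr16:18248695-18248844.
Rangap1: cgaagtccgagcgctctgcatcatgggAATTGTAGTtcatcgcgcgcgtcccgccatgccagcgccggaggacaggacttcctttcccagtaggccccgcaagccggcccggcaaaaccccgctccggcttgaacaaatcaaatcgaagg
Ranbp1: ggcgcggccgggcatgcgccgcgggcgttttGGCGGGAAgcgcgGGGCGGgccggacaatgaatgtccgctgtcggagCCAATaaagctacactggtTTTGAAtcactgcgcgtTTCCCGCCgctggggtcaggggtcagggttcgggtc

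The 2 start regions differed in the exact motif letters they held. The Ranbp1 window held GGCGGGAA, a core bound by E2F factors of the cell cycle, on the forward strand 119 to 112 bases upstream and on the reverse strand 36 to 29 bases upstream. It also held TTTGAA, the letters of the cell cycle homology region, 53 to 48 bases upstream. Of 32475 distinct windows of the same length in the table, 1.34% held GGCGGGAA and 8.83% held TTTGAA on either strand. A CCAAT box (CCAAT, in 24.4% of windows) and a GC box (GGGCGG, in 28.9%) lay between the E2F letters of Ranbp1. The Rangap1 window held no exact match to these 4 motifs. Near matches were not counted. Its run holds tcccgcc, part of TTCCCGCC, the reverse-strand letters of GGCGGGAA, and cttgaa, which is close to TTTGAA. The Rangap1 window held ACTACAATT, letters from the core of a ZNF143 site, on the reverse strand 123 to 115 bases upstream. Of all windows, 0.271% held these letters. No match overlapped another. Both windows were rich in G and C, at 62.0% for Rangap1 and 67.3% for Ranbp1, against a median of 54.0% over all windows. The start used for Rangap1 lies within the annotated gene, so the annotation also holds transcripts of it that start further upstream. The gene next to Ranbp1 on the far side of its window is Trmt2a, which runs on the opposite strand. A match of letters shows no binding, and no factor was measured.

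In the GAP and GEF table, Rangap1 was about 3-fold lower in differentiated than in undifferentiated cells on its 2 stronger probe sets, and Ranbp1 was slightly lower. Probe set 1423749_s_at of Rangap1 had a signal of 249.8 ± 10.3 in differentiated cells, against 713 ± 24.5 in undifferentiated cells. That is 2.85-fold lower, a log2 difference of -1.51 ± 0.08. Probe set 1451092_a_at had 188 ± 23.7 in differentiated and 597 ± 37.6 in undifferentiated cells, 3.16-fold lower, a log2 difference of -1.66 ± 0.20. The 2 log2 differences were 0.15 apart with a model SE of 0.22, so they could not be told apart. The table lists both under the same sequence accession, so they may read overlapping stretches and are not separate evidence. In Affymetrix naming, the suffix a_at marks probes that match several transcripts of 1 gene, and s_at marks probes that may also match transcripts of another gene.

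The remaining Rangap1 probe set, 1444581_at, is listed under another accession and was weak in both groups. Its signal was 59.1 ± 6.6 in differentiated and 69.1 ± 9.8 in undifferentiated cells, a log2 difference of -0.22 ± 0.26 that is smaller than its model SE. It was called present in both groups, although its differentiated signal was 0.866 times the level under which 95% of the absent-called signals of that group lay. Its undifferentiated signal was 1.34 times that level in its own group. By the same measure 1423749_s_at stood at 3.66 times in differentiated and 13.8 times in undifferentiated cells. The transcript region read by 1444581_at was thus near the detection limit.

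Ranbp1 was read by 1 probe set, 1422547_at, far above the detection limit. Its signal was 5526 ± 360.4 in differentiated and 6712 ± 206 in undifferentiated cells. It was 1.21-fold lower in differentiated cells, a log2 difference of -0.28 ± 0.10, or 2.70 model SE. The log2 difference of Rangap1 on 1423749_s_at was lower than that of Ranbp1 by 1.23 with a model SE of 0.13. A scaling that shifts all signals of an array by 1 factor leaves this gap between the 2 genes as it is.

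**Figure D1:**
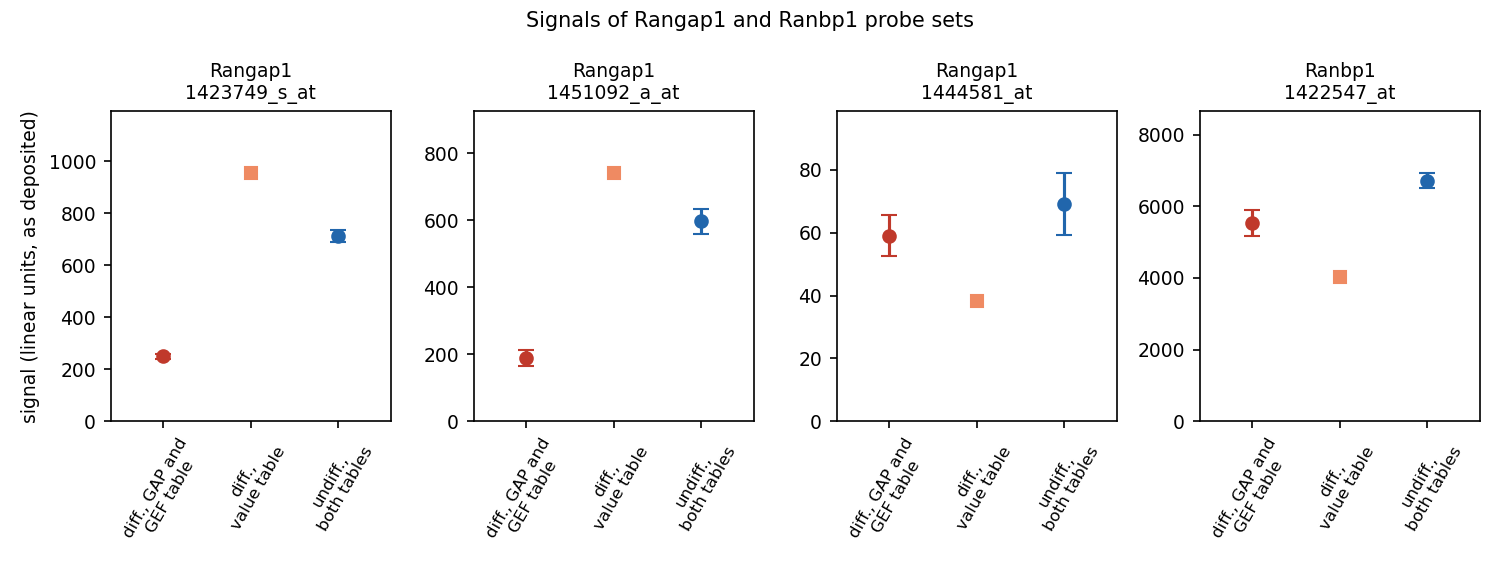
Signals as deposited (linear units) of the 4 probe sets in differentiated cells (GAP and GEF table, then value table) and in undifferentiated cells, whose signals are the same in both tables. Bars are the deposited standard error, which the value table lacks. The 2 stronger Rangap1 probe sets read 249.8 and 188 in the differentiated column of 1 table and 954 and 739 in that of the other, on opposite sides of the undifferentiated signals.

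The value table holds a different signal for the differentiated cells, and there the stronger Rangap1 probe sets were slightly higher as deposited. The undifferentiated column was the same in both tables for all 374 probe sets, within 0.005 signal units, while the differentiated column matched for 0. Neither the labels nor the file headers say where the second differentiated column comes from. On 1423749_s_at the value table had 954 in differentiated and 713 in undifferentiated cells, as deposited a log2 difference of 0.42. On 1451092_a_at it had 739 in differentiated and 597 in undifferentiated cells, a log2 difference of 0.31. After quantile normalization, which gives both arrays 1 distribution of signals, the differences were 0.64 and 0.50. With the medians of both arrays set equal instead, they were -0.13 and -0.25. The direction of Rangap1 thus turned with the scaling of the value table, and none of these values reached 2-fold.

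Ranbp1 was lower in differentiated cells in the value table too. Its signal was 4015 in differentiated and 6712 in undifferentiated cells, 1.67-fold lower as deposited, a log2 difference of -0.74. Quantile normalization gave -0.38 and equal medians -1.30. After quantile normalization, 37.6% of all measured probe sets and 42.2% of those of the GAP and GEF table had a lower difference than Ranbp1. The log2 difference of Rangap1 on 1423749_s_at was higher than that of Ranbp1 by 1.16 as deposited, the opposite order to the GAP and GEF table. The weak Rangap1 probe set 1444581_at had 38.3 in differentiated and 69.1 in undifferentiated cells, as deposited. That is 1.80-fold lower, a log2 difference of -0.85. After quantile normalization its differentiated signal was set to the floor of 37.6 signal units, and the difference was -1.11, past 2-fold. It was under 2-fold with equal 75th percentiles (-0.77). As deposited and after quantile normalization, the weak probe set of Rangap1 thus lay below 0 and the 2 stronger ones above 0, while with equal medians all 3 lay below 0.

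**Figure D2:**
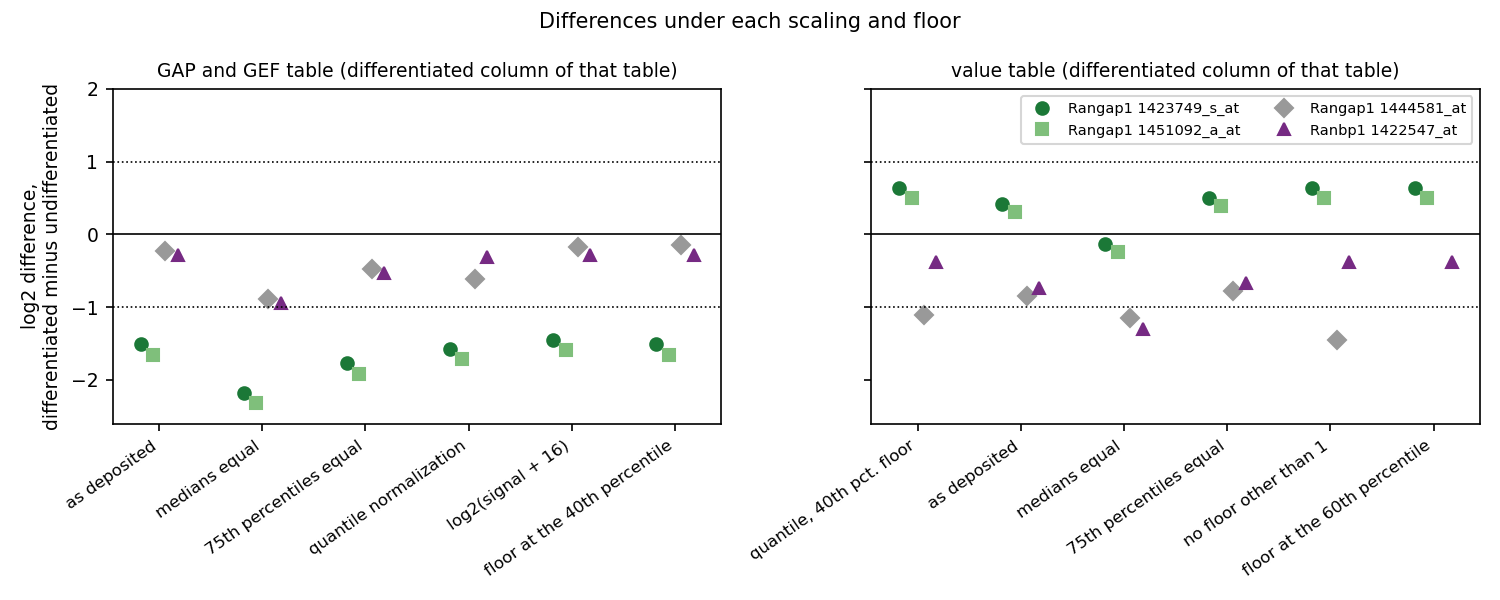
Log2 difference (differentiated minus undifferentiated) of the 4 probe sets under each scaling and floor, with each table's own differentiated column. Dotted lines mark 2-fold. In the GAP and GEF table the 2 stronger Rangap1 probe sets lie between -2.32 and -1.46, and in the value table between -0.25 and 0.64. Ranbp1 lies below 0 in every setting plotted.

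Across the settings plotted, the stronger Rangap1 probe sets were past 2-fold lower in 12 of 12 values of the GAP and GEF table. Of their 12 values in the value table, 10 lay above 0, 2 below, and 0 were past 2-fold lower. Ranbp1 was below 0 in 6 of 6 settings of each table. Its range was -0.94 to -0.28 in the GAP and GEF table and -1.30 to -0.38 in the value table, with 1 value past 2-fold. All settings of a table start from the same 2 signals, so these counts describe the processing and are no replicates.

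The Rangap1 difference was among the lower ones of the GAP and GEF table. Of 157 genes with a probe set present in at least 1 group, 10 (6.37%) were lower in differentiated cells by 2-fold or more, and 29 (18.5%) were higher by as much. The balance depended on the scaling: with equal medians 34 were lower and 13 higher. These medians are those of the table's own 374 probe sets, not of the whole array. The median log2 difference was 0.18. Rangap1 was 1 of the 10, and 5 genes had a lower difference. Ranbp1 had 39 genes below it. Counted as probe sets, 24 of 313 (7.67%) were at least 2-fold lower, and 2 of the 4 members were among them. These 2 share an accession, so they stand for 1 gene.

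After quantile normalization of the value table, 7018 of its 31831 measured probe sets (22.0%) were lower by 2-fold or more and 6709 (21.1%) higher by as much. Among the 301 measured probe sets of the GAP and GEF genes the shares were 26.6% and 19.3%. The 1 member past 2-fold was 1444581_at, with its differentiated signal at the floor. With 43.1% of the measured probe sets past 2-fold in either direction, 1 of 4 members past it does not stand out.

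**Figure D3:**
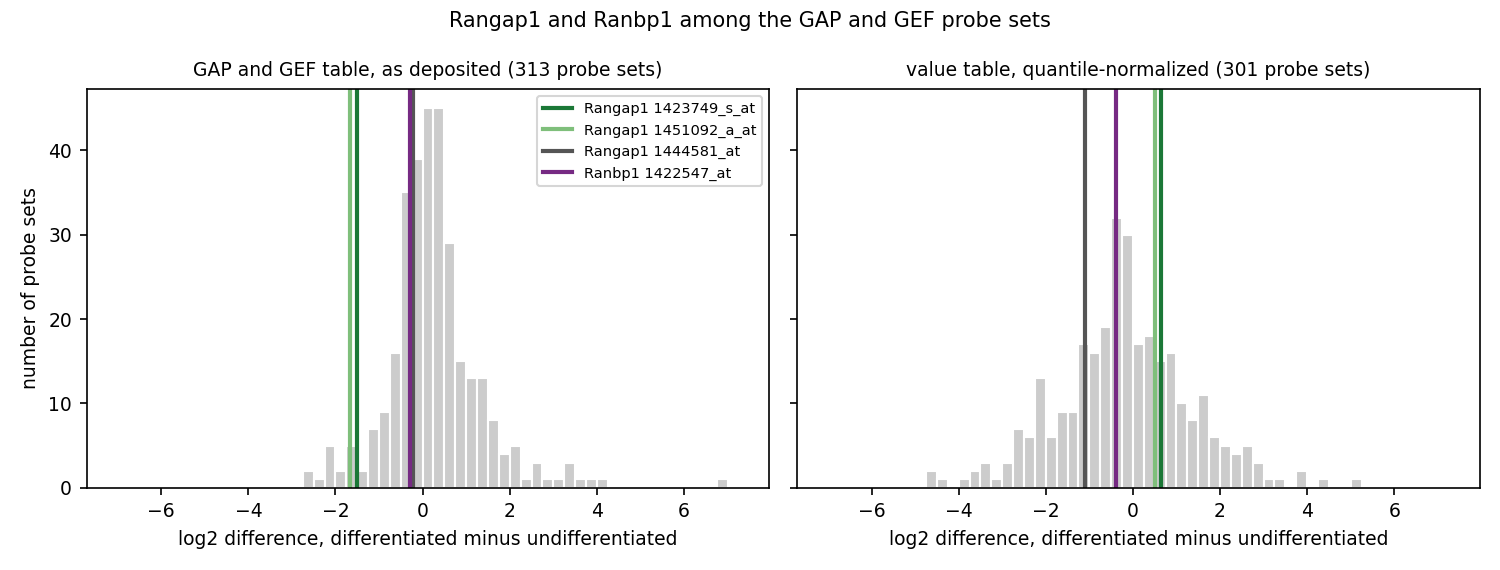
Histograms of the log2 differences (differentiated minus undifferentiated) of GAP and GEF probe sets, with the 4 members as lines. The left panel shows the 313 probe sets present in at least 1 group of the GAP and GEF table, and the right panel the 301 measured in the value table. The 2 stronger Rangap1 lines lie in the lower tail on the left, at -1.51 and -1.66, and above 0 on the right, at 0.64 and 0.50 (-0.13 and -0.25 with equal medians), while Ranbp1 lies at -0.28 on the left and -0.38 on the right.

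The undifferentiated signals being the same, the tables differ on Rangap1 through the differentiated signals. On 1423749_s_at the value table's differentiated signal was 3.82 times that of the GAP and GEF table, and on 1451092_a_at 3.92 times. Over the 293 probe sets called present in differentiated cells, the median log2 ratio of the value table's column over that of the GAP and GEF table was -0.45, with quartiles of -1.63 and 0.57. Ratios at least as high as those of the 2 Rangap1 probe sets, 1.93 and 1.97, were found for 20 and 19 of the 293 (6.83% and 6.48%). Ranbp1 had -0.46 and 1444581_at had -0.63, both close to the median. The ratio of Ranbp1 thus lay near the median, and those of the 2 stronger Rangap1 probe sets in the upper tail. Larger differences in the other direction were also found: the lowest decile of the ratios lay at or below -2.89. As deposited, with no rescaling, all 4 probe sets differed between the tables by more than 3 model SE of the GAP and GEF table. That count includes any shift common to all probe sets. The differences of Ranbp1 and 1444581_at lay near the median shift.

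**Figure D4:**
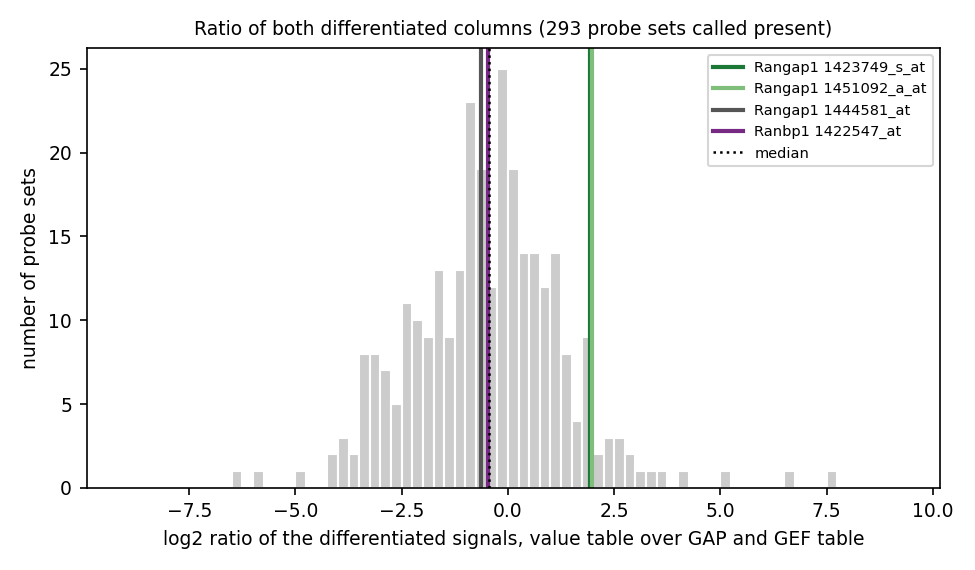
Histogram of the log2 ratio of differentiated signals, value table over GAP and GEF table, for 293 probe sets called present in differentiated cells. Ranbp1 (-0.46) and the weak Rangap1 probe set (-0.63) lie near the median of -0.45, and the 2 stronger Rangap1 probe sets lie at 1.93 and 1.97.

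The balance of 3′ and 5′ signal, a sign of RNA quality, also differed between the arrays of the value table. The ratio of 3′ to 5′ signal for Gapdh was 3.77 in differentiated and 0.868 in undifferentiated cells, and for beta-actin it was 1.54 in differentiated and 1.09 in undifferentiated cells. Control probe sets are not in the GAP and GEF table. The part of RNA quality in the difference between the tables was not tested.

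No other gene of the Ran cycle carries a name in these files. Of 37 further genes listed for the pathway, among them Ran itself, its exchange factor Rcc1, the pore protein Ranbp2, the exportin Xpo1 and the importin Kpnb1, 0 are in the GAP and GEF table, and the value table gives no names. Of 35 markers listed for podocytes, dividing cells, the interferon response and other kidney or blood cells, 0 are named either. The labelled cell type was therefore not checked against its markers here.

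Regulators of small GTPases that act in cell division form the closest group that is named. Of 8 such genes, listed with earlier results of these data known, 6 were measured, so the counts below are descriptive and no test. For the GAP and GEF table, the strongest probe sets of 5 of the 6 were at least 2-fold lower in differentiated cells (6.37% of all measured genes were), and 0 were 2-fold higher. Their median log2 difference was -2.20, against 0.18 for all measured genes, as deposited. The count was 5 under each of the 3 other scalings, under which the number of all 157 genes past 2-fold lower was 34 (equal medians), 17 (equal 75th percentiles) and 16 (quantile normalization), and equal medians moved the median of all genes to -0.49. Racgap1, a subunit of the centralspindlin complex of cytokinesis, had a signal of 509 in differentiated and 2182 in undifferentiated cells, a log2 difference of -2.10 ± 0.28. Depdc1a had -2.31 ± 0.09 and Iqgap3, a scaffold protein linked to proliferation, -1.50 ± 0.19. Arhgap11a, a GAP, had -0.23 ± 0.07, close to Ranbp1. Depdc1b had -2.67 ± 1.41, with a differentiated signal of 15.1. That lies under 68.3, the level under which 95% of the absent-called signals of that group lay.

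The same division genes had no common direction in the value table. After quantile normalization 0 of the 6 were past 2-fold lower and 2 past 2-fold higher, with a median of 0.30, against -0.028 for all measured probe sets. Equal medians turned their median to -0.47, against -0.38 for all measured probe sets, with 2 of the 6 past 2-fold lower and 1 past 2-fold higher. After quantile normalization the 2 higher genes were Depdc1b (3.79) and Arhgap11a (1.04), while Racgap1 had -0.43 and Depdc1a -0.25. Racgap1, Depdc1a, Depdc1b, Arhgap19 and Iqgap3 are the 5 division genes past 2-fold lower in the GAP and GEF table. Like Rangap1, they were not so in the quantile-normalized value table. This was not particular to division genes. Of the other genes past 2-fold lower in the GAP and GEF table, Tbc1d1 (0.91) and Rap1gap2 (-0.16) were not so there either. Sipa1 (-2.51) and Usp6nl (-1.07) were past 2-fold lower in both. The sources share the undifferentiated array and differ in the differentiated column and the scaling used. The list was chosen with earlier results of these data known.

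**Figure D5:**
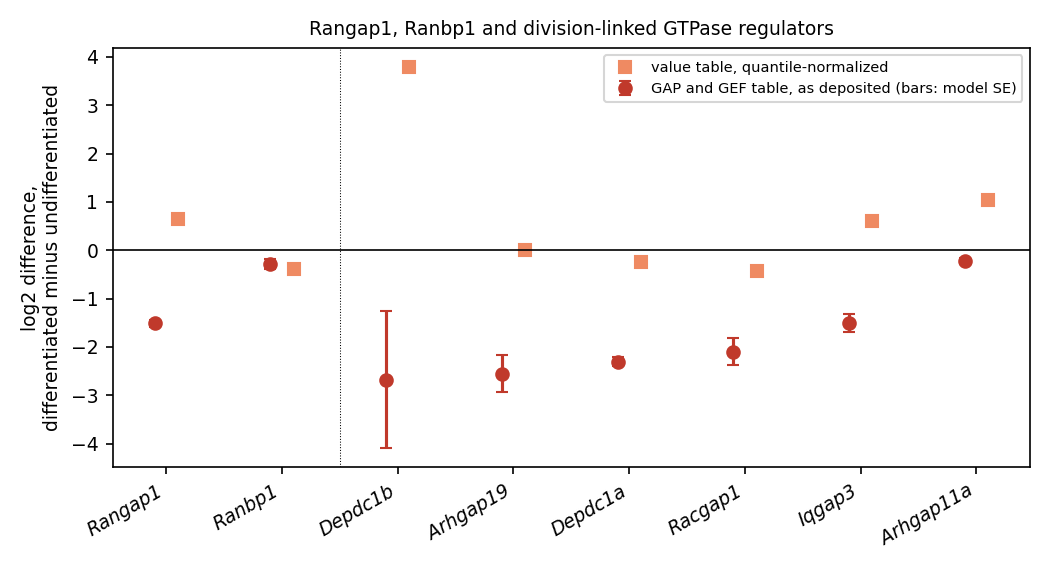
Log2 differences (differentiated minus undifferentiated) of Rangap1 (1423749_s_at), Ranbp1 and 6 division-linked regulators of small GTPases, each by its strongest probe set. Circles are the GAP and GEF table with the model SE, squares the value table after quantile normalization. All 8 circles lie below 0, from -2.67 ± 1.41 for Depdc1b to -0.23 for Arhgap11a, while 5 of the 8 squares lie above 0, Arhgap19 by 0.0014. With equal medians of the value table, Rangap1 (-0.13) lies below 0 there too.

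The genes whose pattern was most like each member were sought among 129 other genes present in both groups, by their 2 signals in the GAP and GEF table. By log2 difference, Iqgap3 was nearest to Rangap1 (-1.50 ± 0.19), followed by Tbc1d1, a Rab GAP (-1.36 ± 0.49), and Sipa1, a GAP of Rap (-1.80 ± 0.17). Iqgap3 had 0.60 and Tbc1d1 0.91 in the value table after quantile normalization, both above 0 like Rangap1, while Sipa1 had -2.51. On further probe sets Tbc1d1 had 0.63 and -1.46 there. By the distance between the pairs of log2 signals, Sipa1, Tbc1d13 (log2 difference -0.94 ± 0.13) and Arhgap18 (-0.85 ± 0.27) were nearest to Rangap1. In the quantile-normalized value table these had -2.51, -2.18 and -3.76, against 0.64 for Rangap1.

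Nearest to Ranbp1 by log2 difference were Ankrd27, a GEF of Rab proteins (-0.28 ± 0.27), Arhgef1, a GEF (-0.28 ± 0.14), and Arhgap32 (-0.27 ± 0.17). Their value table differences were 0.21, -2.08 and -2.48, against -0.38 for Ranbp1. Likeness over 2 arrays is a weak measure, and nearness in level compares different probes.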

How the data were processed

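The authors deposited intensity values on a linear scale in 2 tables: the value table of the whole array, and a GAP and GEF table that also gives a standard error and a present, marginal or absent call. Per the labels' protocols, dChip was used for the differentiated sample. Neither the labels nor the headers give its version, options or normalization. Each group has 1 array, and the number of arrays limits the precision.

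Signals were raised to at least 1 before log2. Signals of the GAP and GEF table were not rescaled for the main values, and its standard errors were propagated to the log2 differences. Its alternative scalings were set over its own 374 probe sets, present or absent. They thus make the chosen genes alike between the groups and are no scaling of the whole array. The value table was quantile-normalized over 45037 probe sets, without 64 controls, and raised to a floor at the 40th percentile of both arrays together. A probe set above the floor on at least 1 array was measured. A gene was represented by its present probe set of highest mean log2 signal, and 8 probe sets with several gene IDs were left out of gene counts. At least 2-fold was the threshold, and no p-value was computed. The scalings and the floor were tried on simulated data in which few probe sets changed. How they act when many change, as in these data, was not tested. Names were taken from the GAP and GEF table and updated by gene ID through RefSeq (GRCm38.p6). Python 3.11.15, numpy 2.4.6 and pandas 2.3.3 were used.

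All probe sets of both genes were named, with the 3 nearest other genes by each measure of likeness and the list of division genes; those nearest to Ranbp1 by level are not reported here. The members, lists and tests were chosen with earlier results of these data known. Alternatives were other scalings, floors, a pseudocount of 16, means over probe sets and the other differentiated column.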

Additional observations from a re-analysis of the deposited data

How the results depend on the processing

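No paired analysis was possible because each group has 1 array. For the GAP and GEF table, the value table's differentiated column as deposited turned the stronger Rangap1 probe sets to 0.42 and 0.31, and gave -0.85 for 1444581_at and -0.74 for Ranbp1; the cause was not tested. The values below are in the order 1423749_s_at, 1451092_a_at and 1444581_at of Rangap1, then Ranbp1. In the GAP and GEF table, equal medians gave -2.17, -2.32, -0.89 and -0.94. Equal 75th percentiles gave -1.77 and -1.92, and -0.54 for Ranbp1. Quantile normalization gave -0.61 for 1444581_at. In the value table, equal medians gave -0.13, -0.25, -1.15 and -1.30. Its signals as deposited, with the floor, gave 0.42, 0.31, -0.84 and -0.74, and equal 75th percentiles 0.50, 0.39, -0.77 and -0.66. Without the floor 1444581_at had -1.46, and a floor at the 60th percentile left it unmeasured. The mean over all 3 probe sets of Rangap1, all present in both groups, was -1.13 with the GAP and GEF table's signals and 0.011 with those of the value table. Values not given moved by less than 1 model SE of the GAP and GEF table.

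Counts moved more. Equal medians gave 13 higher and 34 lower genes in the GAP and GEF table, against 29 and 10. Equal 75th percentiles gave 20 higher and 17 lower, and quantile normalization 21 and 16. A 4-fold threshold gave 10 higher and 4 lower, and a 1.5-fold threshold 40 and 19. Of the value table's probe sets, 4268 were higher and 4436 lower with a floor at the 60th percentile, against 6709 and 7018, and 4957 and 10192 with equal medians.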

Other observations

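A search of the GAP and GEF table for Rangap also finds 3 genes described as GTPase-activating RANGAP domain-like, singled out here after their values were seen. They are Garnl1 (now Ralgapa1), Garnl3 and Garnl4 (now Rap1gap2), and none of them is counted with Rangap1 above. Ralgapa1 is a subunit of a Ral GAP complex and Rap1gap2 a GAP of Rap. In the GAP and GEF table, 7 of 8 Ralgapa1 probe sets were present in at least 1 group, with log2 differences from -0.52 to 0.89. Rap1gap2 had -1.10 ± 0.57. Garnl3 had a signal of 249 in differentiated cells and was called absent in undifferentiated cells. The 3 genes had no common direction in that table: Rap1gap2 was lower in differentiated cells, as Rangap1 was there, and Garnl3 was higher. In the value table after quantile normalization, Rap1gap2 had -0.16. Garnl3, with a differentiated signal of 24.9 as deposited, was not above the floor on either array there.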
